A study of Homo sapiens
Mus musculus with 6 samples.

Results

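The genes described here are 41 human genes of the cell cycle and of DNA replication, read in HEK293 cells growing beside mouse C2C12 myoblasts. They were taken by symbol from the 23855 entries of the human gene table. All 41 were found in it, and all 41 passed the filter on low counts. By role, 12 load the replicative helicase at origins or form it, 7 act at the fork, supply nucleotides or copy chromatin, 4 regulate the passage from G1 into S, 16 act in G2 and mitosis, and 2 are D-type cyclins. The first 3 roles are called the S-phase genes below (23 genes), and the 16 of G2 and mitosis the mitotic genes.

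Before a cell copies its DNA, the origin recognition complex, CDC6 and CDT1 load rings of MCM proteins onto DNA, and CDC45 and the GINS complex later turn them into active helicases. E2F transcription factors, released when cyclin and CDK complexes act on RB, drive many of these genes in late G1 and S, while CDK1, its cyclins and the spindle and kinetochore proteins are made mostly in G2 and M. HEK293 is a human embryonic kidney line transformed with adenovirus DNA, and it expresses the viral E1A protein, which binds RB family proteins.

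Each of the 6 wells held 1 combination of a human and a mouse line, and RNA of both species was sequenced together. The human lines were HEK293-Flp-In derivatives, lines made to take an insert at a defined recombination site: HEK-Jag1WT carried Jag1 in its normal form, HEK-Jag1Ndr carried the Nodder form Jag1Ndr, and HEK-control (labelled Flp Ctrl) carried neither. The mouse lines were C2C12-Notch1, with full-length Notch1, and C2C12-control. All C2C12 cells had settled for 8 h and been transfected with 1.6 ug per well of the plasmid pcDNA5, and the HEK cells joined them 18 h later for 6 h before lysis. Jag1 is a Notch ligand, and the design puts ligand and receptor on cells of different species. The HEK-Jag1WT and HEK-Jag1Ndr lines had been kept under hygromycin and C2C12-Notch1 under puromycin, while the labels give no selection for the control lines. Each HEK line was in 2 wells and each C2C12 line in 3, and wells that share a line served as its replicates. The labels do not say whether a line is 1 clone or a pool, nor that wells came from separate cultures, so that p-values measure how far these wells differ among themselves, perhaps for technical reasons, and the form of Jag1 cannot be told apart from any other difference between the lines.

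The human tables held 4081452 to 10292878 reads per well, which was 47.3% to 52.8% of all reads beside C2C12-control and 63.5% to 70.4% beside C2C12-Notch1. The 41 genes had between 203 and 13927 reads each in a well. Mouse Jag1, read in the mouse table as a check of the labels, took 46762 and 42347 reads beside HEK-Jag1WT, 63145 and 63416 beside HEK-Jag1Ndr, and 280 and 110 beside HEK-control. Of 14 HEK markers, 11 had a mean of at least 1 RPKM in the human table, while SALL4, NEFM and STMN2 did not. The human share of their reads over both tables ran from 0.0325% for STMN2 to 100% for EPCAM. Among those that passed it was 12% for VIM, 35.7% for TUBB2B and 65.4% for NEFL, so that not every marker sets the species apart. Of 15 muscle markers 4 reached 1 RPKM in the human table (TNNT1, COL1A1, CDH15 and COL3A1), and MYOG, MYF5, MYL1 and DCN were at 0 reads. MYOD1 had 0.291% of its reads in the human table, and TNNT1 had 59.4%. The summed human RPKM of the 15 was 39.1 to 39.7 in HEK-Jag1WT wells, 24.5 to 27 in HEK-Jag1Ndr wells and 28.9 to 29.4 in HEK-control wells, most of it TNNT1, and its part in the differences below was not tested.

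Levels are given in RPKM, read counts scaled to gene length and to the human reads of the well, and within each HEK line the well beside C2C12-Notch1 comes before the well beside C2C12-control. Mean levels ran from 9.61 RPKM for CENPE to 645 RPKM for MCM7, with medians of 78 RPKM for the S-phase genes and 52.5 RPKM for the mitotic genes. Differences are log2 values with their standard error (SE) from edgeR's quasi-likelihood test on the counts, with p adjusted over all 13596 genes tested, and a gene is said to rise or fall where the adjusted p is under 0.05. In bulk RNA, more cells in a phase and more RNA per cell in that phase cannot be told apart.

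Both Jag1 lines had more mitotic RNA than HEK-control, and they differed in the S-phase genes. In HEK-Jag1WT, 15 of the 16 mitotic genes rose and 0 fell, with a median log2 difference of 0.53, while of the 23 S-phase genes 8 rose and 5 fell, with a median of -0.0075 that was above 0 under other scalings (0.015 by library size and 0.014 with RLE factors). In HEK-Jag1Ndr, 13 of the 16 mitotic genes rose and 0 fell, with a median of 0.29, while 2 S-phase genes rose and 14 fell, with a median of -0.21. Set against HEK-Jag1WT directly, HEK-Jag1Ndr had 16 S-phase genes lower and 4 higher (median -0.45) and 11 mitotic genes lower and 2 higher (median -0.23). The first 2 comparisons share the HEK-control wells, and the third shares its wells with both.

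These counts stand against wide differences between the lines across the genome. In HEK-Jag1WT against HEK-control, 24.9% of all tested genes rose and 29.4% fell, and of the 41 genes 23 rose and 6 fell. DESeq2, a second test of the counts, did not call GINS2 and CCNE2 there. In HEK-Jag1Ndr against HEK-control the shares were 22.6% and 23.5%, and of the 41 genes 16 rose and 15 fell. By DESeq2 12 rose and 9 fell. The rises it did not call were CDK1, CCNB2, BUB1B and CCND1, so that fewer mitotic genes rose by DESeq2. The falls it did not call were MCM4, MCM10, UHRF1, WDR76, CCNE2 and E2F1. In HEK-Jag1Ndr against HEK-Jag1WT the shares were 29.2% higher and 28.5% lower, with 7 of the 41 genes higher and 28 lower. Here DESeq2 did not call MCM4, MCM6, E2F2, CCNA2, CCNB2 and CDC20. Calls said below to fail without a well can thus also depend on the method. The median of all tested genes was -0.026, -0.0092 and -0.012 in the 3 comparisons. The shares of all tested genes called in either direction were 54.3%, 46.1% and 57.7%, and those of the 41 genes were 70.7%, 75.6% and 85.4%. The S-phase genes of HEK-Jag1WT, with 34.8% higher and 21.7% lower, lay near the genome's shares, while 93.8% of the mitotic genes rose there. A longer list of 55 other S-phase genes, described further on, had 54.5% higher and 12.7% lower in HEK-Jag1WT, with a median of 0.24.

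**Figure D1:**
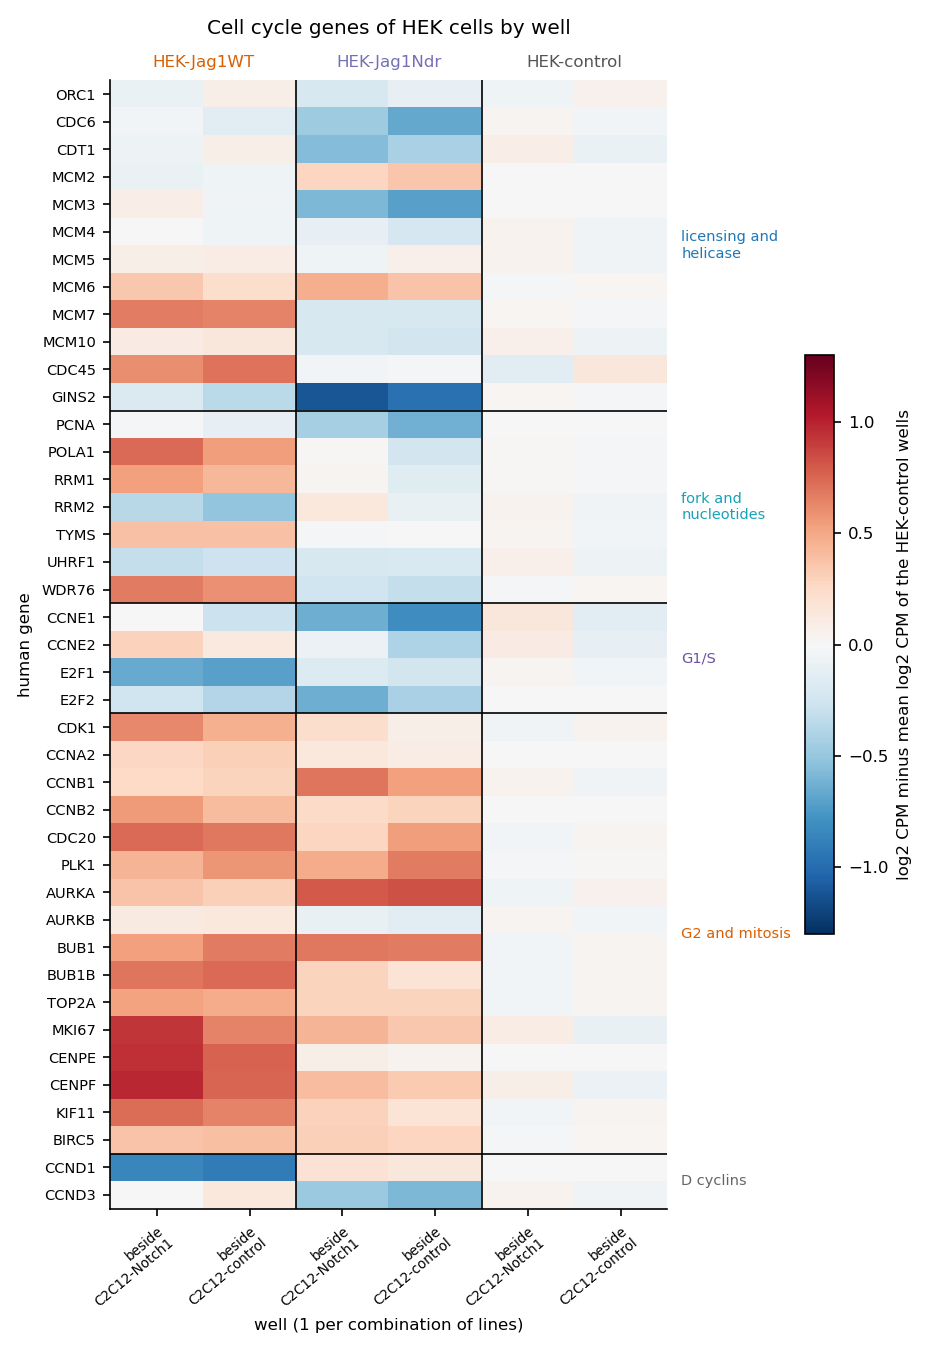
Human log2 CPM (counts scaled to library size) of the 41 genes (rows, grouped by role) in the 6 wells (columns, grouped by HEK line), each minus the mean of the HEK-control wells. The block of 16 mitotic genes is above 0 in both HEK-Jag1WT wells, whose mitotic medians are 0.54 and 0.53, and CCND1 is the lowest row there.

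**Figure D2:**
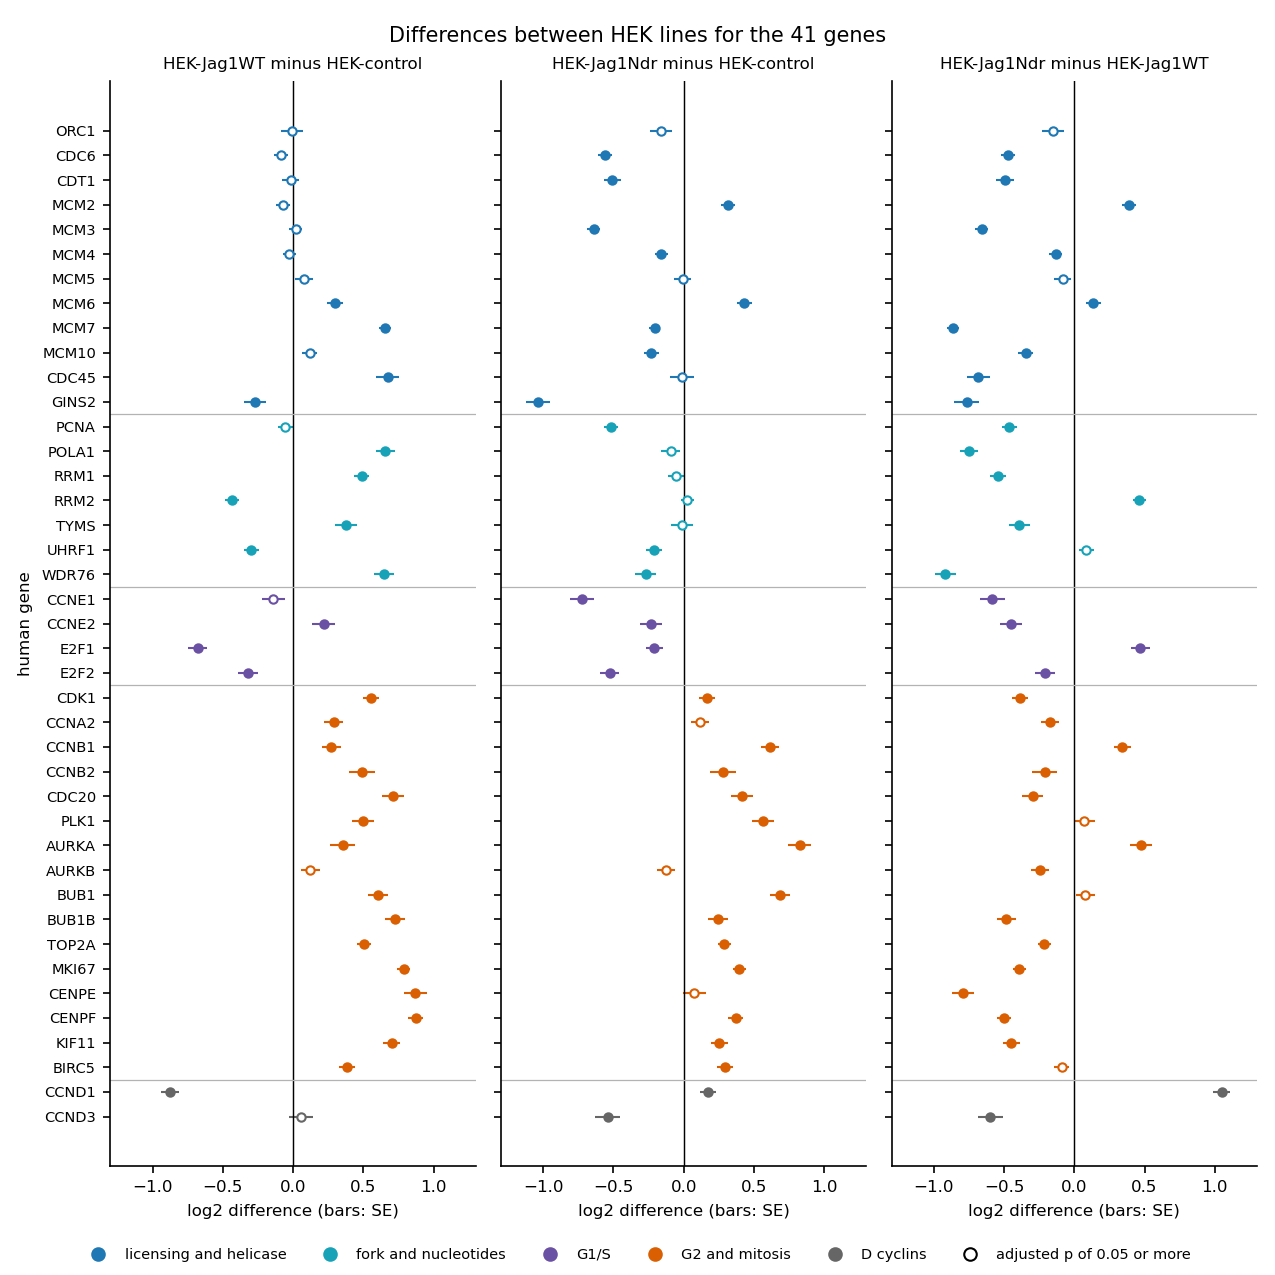
Log2 difference (x axis) and its SE (bars) for each gene (y axis) in the 3 comparisons of HEK lines, coloured by role, with open circles where the adjusted p was 0.05 or more. All filled mitotic points are right of 0 in the left and middle panels (15 and 13 genes), and 28 filled points are left of 0 in the right panel.

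The genes of origin licensing and the helicase split within the MCM ring itself. In HEK-Jag1WT 3 of the 12 rose (MCM6, MCM7, CDC45) and 1 fell (GINS2), and in HEK-Jag1Ndr 2 rose (MCM2, MCM6) and 7 fell. The shares called in either direction were 33.3% in HEK-Jag1WT, below the 54.3% of all tested genes, and 75% in HEK-Jag1Ndr, against 46.1%; the share higher in HEK-Jag1WT, 25%, was that of the genome (24.9%). MCM7, one of the MCM ring subunits, had 889 and 902 RPKM in HEK-Jag1WT wells, 477 and 489 RPKM in HEK-Jag1Ndr wells, and 563 and 552 RPKM in HEK-control wells. The 3 lines did not overlap, with HEK-Jag1WT highest and HEK-Jag1Ndr lowest. MCM7 rose in HEK-Jag1WT (log2 difference 0.66 ± 0.042, adjusted p = 3.24e-21), fell in HEK-Jag1Ndr against HEK-control (-0.21 ± 0.042, adjusted p = 3.75e-05) and was lower in HEK-Jag1Ndr than in HEK-Jag1WT (-0.86 ± 0.042, adjusted p = 3.08e-27).

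MCM3, a neighbouring ring subunit, had 253 and 237 RPKM in HEK-Jag1WT wells, 157 and 148 RPKM in HEK-Jag1Ndr wells, and 237 and 239 RPKM in HEK-control wells. Only the HEK-Jag1Ndr wells stood apart, below the other 4. Its log2 difference was 0.02 ± 0.046, adjusted p = 0.736 in HEK-Jag1WT, -0.64 ± 0.046, adjusted p = 1.25e-18 in HEK-Jag1Ndr against HEK-control and -0.66 ± 0.046, adjusted p = 1.61e-19 in HEK-Jag1Ndr against HEK-Jag1WT. MCM2, another ring subunit, went the other way, with 112 and 118 RPKM in HEK-Jag1WT wells, 142 and 154 RPKM in HEK-Jag1Ndr wells, and 117 and 120 RPKM in HEK-control wells. Both HEK-Jag1Ndr wells were above the other 4, with a difference of 0.32 ± 0.048, adjusted p = 1.11e-07 against HEK-control and 0.39 ± 0.049, adjusted p = 3.74e-10 against HEK-Jag1WT, while HEK-Jag1WT against HEK-control gave -0.072 ± 0.05, adjusted p = 0.221. MCM6 had 78.6 and 74.2 RPKM in HEK-Jag1WT wells, 84.5 and 80.7 RPKM in HEK-Jag1Ndr wells, and 60.2 and 63 RPKM in HEK-control wells. Both Jag1 lines were above HEK-control (0.30 ± 0.056, adjusted p = 9.28e-06 for HEK-Jag1WT and 0.43 ± 0.055, adjusted p = 9.94e-10 for HEK-Jag1Ndr). The higher MCM6 of HEK-Jag1Ndr against HEK-Jag1WT (0.14 ± 0.054, adjusted p = 0.0285) did not pass in 10 of the 14 alternatives. These included scaling by library size (adjusted p = 0.0709), DESeq2 (adjusted p = 0.214) and both limma fits (adjusted p = 0.162). It also failed when any 1 of the 4 wells of the Jag1 lines was left out, where the difference was 0.075 to 0.16.

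CDC6, the ATPase that brings MCM rings to origins, had 156 and 148 RPKM in HEK-Jag1WT wells, 113 and 101 RPKM in HEK-Jag1Ndr wells, and 161 and 156 RPKM in HEK-control wells. Both HEK-Jag1Ndr wells were lowest and did not overlap with the others, while the HEK-Jag1WT wells met the HEK-control range at 156 RPKM. CDC6 fell in HEK-Jag1Ndr against HEK-control (-0.56 ± 0.05, adjusted p = 5.96e-15) and against HEK-Jag1WT (-0.47 ± 0.05, adjusted p = 1.76e-12), and HEK-Jag1WT against HEK-control gave -0.085 ± 0.049, adjusted p = 0.144. CDT1, its partner in loading, had 92.9 and 105 RPKM in HEK-Jag1WT wells, 64.8 and 73.3 RPKM in HEK-Jag1Ndr wells, and 102 and 92 RPKM in HEK-control wells. CDT1 fell in HEK-Jag1Ndr against HEK-control (-0.51 ± 0.062, adjusted p = 5.32e-10) and against HEK-Jag1WT (-0.49 ± 0.063, adjusted p = 1.09e-09), with both HEK-Jag1Ndr wells below the other 4, and HEK-Jag1WT against HEK-control gave -0.017 ± 0.061, adjusted p = 0.834.

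GINS2, a subunit of the GINS complex of the active helicase, had 79.5 and 72.4 RPKM in HEK-Jag1WT wells, 41 and 46.7 RPKM in HEK-Jag1Ndr wells, and 91.1 and 88.8 RPKM in HEK-control wells. No 2 lines overlapped, and HEK-Jag1Ndr was lowest, at a fold of 0.487 against HEK-control (log2 -1.04 ± 0.083, adjusted p = 6.87e-17) and 0.588 against HEK-Jag1WT (-0.77 ± 0.087, adjusted p = 1.54e-11). The smaller fall in HEK-Jag1WT (-0.27 ± 0.079, adjusted p = 0.00288) did not pass with DESeq2 (adjusted p = 0.155). Nor did it pass without the HEK-Jag1WT well beside C2C12-control, where the difference was -0.15. CDC45, which joins MCM and GINS, had 53.7 and 58.9 RPKM in HEK-Jag1WT wells, 33.7 and 35.1 RPKM in HEK-Jag1Ndr wells, and 31.4 and 39.4 RPKM in HEK-control wells. The HEK-Jag1WT wells were above the other 4, and the HEK-Jag1Ndr values lay within the HEK-control range. CDC45 rose in HEK-Jag1WT (0.67 ± 0.082, adjusted p = 2.26e-10) and was lower in HEK-Jag1Ndr than in HEK-Jag1WT (-0.68 ± 0.081, adjusted p = 7.42e-11), while HEK-Jag1Ndr against HEK-control gave -0.011 ± 0.085, adjusted p = 0.932.

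The other 4 genes of this role moved less. MCM10, which helps to start the helicase, fell in HEK-Jag1Ndr against HEK-control (-0.23 ± 0.055, adjusted p = 0.000378) and against HEK-Jag1WT (-0.35 ± 0.055, adjusted p = 1.77e-07), and HEK-Jag1WT against HEK-control gave 0.12 ± 0.055, adjusted p = 0.0643. The MCM10 fall against HEK-control did not pass without the HEK-control well beside C2C12-Notch1 (adjusted p = 0.0561), and its adjusted p spanned 2.23e-05 to 0.0561 over the 14 alternatives. MCM4 fell in HEK-Jag1Ndr by a small step against HEK-control (-0.16 ± 0.045, adjusted p = 0.00286) and against HEK-Jag1WT (-0.13 ± 0.046, adjusted p = 0.0114), and HEK-Jag1WT against HEK-control gave -0.028 ± 0.046, adjusted p = 0.629. The MCM4 fall against HEK-control did not pass without the HEK-Jag1Ndr well beside C2C12-control (adjusted p = 0.0887), and its adjusted p spanned 0.0025 to 0.0945 over the 14 alternatives. Against HEK-Jag1WT it did not pass without the HEK-Jag1WT well beside C2C12-control (adjusted p = 0.203) or the HEK-Jag1Ndr well beside C2C12-control (adjusted p = 0.104), and its adjusted p spanned 0.00132 to 0.203 over the 14 alternatives. MCM5 gave 0.076, -0.0062 and -0.083 in the 3 comparisons (adjusted p = 0.302, 0.946 and 0.249), and ORC1, the origin recognition subunit made in late G1, gave -0.0075, -0.16 and -0.15 (adjusted p = 0.945, 0.0845 and 0.0941).

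Among the 7 genes of the fork, nucleotide supply and chromatin copying, 4 rose and 2 fell in HEK-Jag1WT, where 24.9% of all tested genes rose and 29.4% fell. In HEK-Jag1Ndr 3 fell and 0 rose, so that 42.9% were called against 46.1% of all tested genes. POLA1, the catalytic subunit of the polymerase that primes DNA synthesis, had 37.9 and 33.8 RPKM in HEK-Jag1WT wells, 22.5 and 19.5 RPKM in HEK-Jag1Ndr wells, and 22.7 and 22.5 RPKM in HEK-control wells. The HEK-Jag1WT wells were above the other 4, and the ranges of the other lines touched at 22.5 RPKM. POLA1 rose in HEK-Jag1WT (0.66 ± 0.067, adjusted p = 6.59e-13) and was lower in HEK-Jag1Ndr than in HEK-Jag1WT (-0.75 ± 0.067, adjusted p = 2.65e-15), and HEK-Jag1Ndr against HEK-control gave -0.094 ± 0.069, adjusted p = 0.274. PCNA, the sliding clamp of the polymerases, had 446 and 428 RPKM in HEK-Jag1WT wells, 329 and 296 RPKM in HEK-Jag1Ndr wells, and 444 and 454 RPKM in HEK-control wells. Only HEK-Jag1Ndr stood apart: PCNA was lower there than in HEK-control (-0.52 ± 0.052, adjusted p = 5.77e-13) and than in HEK-Jag1WT (-0.46 ± 0.053, adjusted p = 1.95e-11), and HEK-Jag1WT against HEK-control gave -0.055 ± 0.052, adjusted p = 0.378.

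The 2 listed subunits of ribonucleotide reductase, the enzyme that makes deoxynucleotides, went in opposite directions in HEK-Jag1WT. RRM1, the large subunit, had 111 and 106 RPKM in HEK-Jag1WT wells, 77.2 and 69.6 RPKM in HEK-Jag1Ndr wells, and 76.8 and 76.3 RPKM in HEK-control wells. RRM2, the small subunit, had 201 and 186 RPKM in HEK-Jag1WT wells, 281 and 244 RPKM in HEK-Jag1Ndr wells, and 263 and 253 RPKM in HEK-control wells. In HEK-Jag1WT the RRM1 wells were above and the RRM2 wells below those of both other lines. RRM1 rose in HEK-Jag1WT against HEK-control (0.49 ± 0.055, adjusted p = 1.96e-11) and RRM2 fell (-0.44 ± 0.047, adjusted p = 4.79e-12). HEK-Jag1Ndr had lower RRM1 than HEK-Jag1WT (-0.54 ± 0.055, adjusted p = 2.85e-13) and higher RRM2 (0.46 ± 0.047, adjusted p = 3.47e-13), and against HEK-control it gave -0.055 ± 0.056, adjusted p = 0.446 for RRM1 and 0.026 ± 0.046, adjusted p = 0.673 for RRM2. TYMS, thymidylate synthase, had 177 and 181 RPKM in HEK-Jag1WT wells, 132 and 137 RPKM in HEK-Jag1Ndr wells, and 137 and 132 RPKM in HEK-control wells. Its HEK-Jag1WT wells were above the other 4 (0.38 ± 0.078, adjusted p = 3.87e-05 against HEK-control), HEK-Jag1Ndr was lower than HEK-Jag1WT (-0.39 ± 0.077, adjusted p = 1.5e-05), and HEK-Jag1Ndr against HEK-control gave -0.014 ± 0.078, adjusted p = 0.903.

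WDR76, a WD-repeat protein whose gene peaks in S phase, had 38.4 and 37 RPKM in HEK-Jag1WT wells, 19.7 and 19.6 RPKM in HEK-Jag1Ndr wells, and 23.4 and 24.4 RPKM in HEK-control wells. The 3 lines did not overlap, in the order seen for MCM7. WDR76 rose in HEK-Jag1WT (0.65 ± 0.072, adjusted p = 1.38e-11) and was lower in HEK-Jag1Ndr than in HEK-Jag1WT (-0.92 ± 0.073, adjusted p = 3.3e-17). Its fall in HEK-Jag1Ndr against HEK-control (-0.27 ± 0.076, adjusted p = 0.00241) did not pass with DESeq2 (adjusted p = 0.114), and its adjusted p spanned 0.00184 to 0.114 over the 14 alternatives. UHRF1, which brings DNA methyltransferase to newly copied DNA, had 140 and 146 RPKM in HEK-Jag1WT wells, 146 and 151 RPKM in HEK-Jag1Ndr wells, and 177 and 165 RPKM in HEK-control wells. All 4 wells of the Jag1 lines were below both HEK-control wells. UHRF1 fell in HEK-Jag1WT (-0.30 ± 0.056, adjusted p = 8.39e-06) and in HEK-Jag1Ndr (-0.21 ± 0.054, adjusted p = 0.00104), and HEK-Jag1Ndr against HEK-Jag1WT gave 0.086 ± 0.056, adjusted p = 0.19. In HEK-Jag1WT the fall did not pass without the HEK-Jag1WT well beside C2C12-Notch1 (adjusted p = 0.0693), and its adjusted p spanned 1.57e-07 to 0.0693 over the 14 alternatives. In HEK-Jag1Ndr it did not pass without the HEK-Jag1Ndr well beside C2C12-Notch1 (adjusted p = 0.054) or the HEK-control well beside C2C12-Notch1 (adjusted p = 0.149), and its adjusted p spanned 3.03e-05 to 0.149 over the 14 alternatives.

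Of the 4 regulators of the G1/S step, 1 rose and 2 fell in HEK-Jag1WT, where 24.9% of all tested genes rose and 29.4% fell. All 4 fell in HEK-Jag1Ndr, where 22.6% of all tested genes rose and 23.5% fell. E2F1, the E2F factor best known as an activator of S-phase genes, had 41.6 and 41.1 RPKM in HEK-Jag1WT wells, 56.8 and 55.9 RPKM in HEK-Jag1Ndr wells, and 66.2 and 64 RPKM in HEK-control wells. Wells of different lines did not overlap, and HEK-Jag1WT was lowest. E2F1 fell in HEK-Jag1WT (-0.68 ± 0.068, adjusted p = 2.78e-13) and in HEK-Jag1Ndr (-0.21 ± 0.063, adjusted p = 0.00461), and it was higher in HEK-Jag1Ndr than in HEK-Jag1WT (0.47 ± 0.068, adjusted p = 1.97e-08). The fall in HEK-Jag1Ndr did not pass without the HEK-Jag1Ndr well beside C2C12-control (adjusted p = 0.0526) or the HEK-Jag1Ndr well beside C2C12-Notch1 (adjusted p = 0.0547), and its adjusted p spanned 0.00425 to 0.179 over the 14 alternatives. E2F2, another activator, had 28.1 and 26.4 RPKM in HEK-Jag1WT wells, 21.2 and 25.3 RPKM in HEK-Jag1Ndr wells, and 33.4 and 33.5 RPKM in HEK-control wells, with all 4 wells of the Jag1 lines below HEK-control. E2F2 fell in HEK-Jag1WT (-0.32 ± 0.069, adjusted p = 6.92e-05) and in HEK-Jag1Ndr (-0.53 ± 0.068, adjusted p = 1.68e-09), and it was lower in HEK-Jag1Ndr than in HEK-Jag1WT (-0.21 ± 0.071, adjusted p = 0.0111). The fall in HEK-Jag1WT did not pass without the HEK-Jag1WT well beside C2C12-control (adjusted p = 0.122), and its adjusted p spanned 1.64e-05 to 0.122 over the 14 alternatives. The difference between the Jag1 lines did not pass without the HEK-Jag1WT well beside C2C12-Notch1 (adjusted p = 0.356) or the HEK-Jag1Ndr well beside C2C12-Notch1 (adjusted p = 0.406), and its adjusted p spanned 0.000485 to 0.406 over the 14 alternatives.

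CCNE1 and CCNE2 encode the E-type cyclins, which activate CDK2 at the start of S phase. CCNE1 had 43.3 and 36.3 RPKM in HEK-Jag1WT wells, 27.3 and 24.9 RPKM in HEK-Jag1Ndr wells, and 47 and 39.1 RPKM in HEK-control wells. The HEK-Jag1Ndr wells were lowest (-0.72 ± 0.085, adjusted p = 9.43e-11 against HEK-control and -0.58 ± 0.088, adjusted p = 6.22e-08 against HEK-Jag1WT), and the HEK-Jag1WT and HEK-control ranges overlapped (-0.14 ± 0.083, adjusted p = 0.148). CCNE2 had 41.1 and 37.5 RPKM in HEK-Jag1WT wells, 31.2 and 25.5 RPKM in HEK-Jag1Ndr wells, and 35.6 and 31.3 RPKM in HEK-control wells, with the HEK-Jag1WT wells above the other 4. CCNE2 rose in HEK-Jag1WT (0.22 ± 0.079, adjusted p = 0.0175), fell in HEK-Jag1Ndr (-0.23 ± 0.08, adjusted p = 0.0133) and was lower in HEK-Jag1Ndr than in HEK-Jag1WT (-0.45 ± 0.08, adjusted p = 2.35e-06). The rise in HEK-Jag1WT did not pass without the HEK-Jag1WT well beside C2C12-control (adjusted p = 0.143) or the HEK-control well beside C2C12-Notch1 (adjusted p = 0.146), and its adjusted p spanned 0.00719 to 0.181 over the 14 alternatives. The fall in HEK-Jag1Ndr did not pass without the HEK-Jag1Ndr well beside C2C12-control (adjusted p = 0.233) or the HEK-control well beside C2C12-Notch1 (adjusted p = 0.0562), and its adjusted p spanned 0.0126 to 0.266 over the 14 alternatives.

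The 2 D-type cyclins, which activate CDK4 and CDK6 earlier in G1, fell in different lines. CCND1 had 28.1 and 27.8 RPKM in HEK-Jag1WT wells, 56.9 and 56.8 RPKM in HEK-Jag1Ndr wells, and 50.5 and 50.6 RPKM in HEK-control wells. The wells of each line lay close together, and no 2 lines overlapped. CCND1 fell in HEK-Jag1WT to a fold of 0.545 of HEK-control (log2 -0.88 ± 0.064, adjusted p = 1.34e-18), the lowest value of the 41 genes in that comparison, and was 2.07-fold higher in HEK-Jag1Ndr than in HEK-Jag1WT (1.05 ± 0.063, adjusted p = 9.3e-23). The small rise in HEK-Jag1Ndr against HEK-control (0.17 ± 0.057, adjusted p = 0.0108) did not pass without the HEK-Jag1Ndr well beside C2C12-Notch1 (adjusted p = 0.114) or the HEK-control well beside C2C12-Notch1 (adjusted p = 0.0739), and its adjusted p spanned 0.00492 to 0.116 over the 14 alternatives. CCND3 had 45.9 and 51.2 RPKM in HEK-Jag1WT wells, 32.5 and 30.4 RPKM in HEK-Jag1Ndr wells, and 46.5 and 44.4 RPKM in HEK-control wells. Both HEK-Jag1Ndr wells were below the other 4, with a fall against HEK-control (-0.54 ± 0.087, adjusted p = 4.67e-07) and against HEK-Jag1WT (-0.60 ± 0.089, adjusted p = 4.46e-08), and HEK-Jag1WT against HEK-control gave 0.056 ± 0.085, adjusted p = 0.602.

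The 16 genes of G2 and mitosis rose in both Jag1 lines against HEK-control, except AURKB in HEK-Jag1WT and AURKB, CCNA2 and CENPE in HEK-Jag1Ndr, which did not pass. MKI67, the Ki-67 protein that coats mitotic chromosomes, had 93.6 and 79.1 RPKM in HEK-Jag1WT wells, 65.6 and 63.5 RPKM in HEK-Jag1Ndr wells, and 52.4 and 46.9 RPKM in HEK-control wells. The 3 lines did not overlap, with HEK-Jag1WT highest and HEK-control lowest. MKI67 rose in HEK-Jag1WT (0.79 ± 0.047, adjusted p = 7.94e-23) and in HEK-Jag1Ndr (0.40 ± 0.047, adjusted p = 1.06e-10), and HEK-Jag1Ndr was below HEK-Jag1WT (-0.39 ± 0.046, adjusted p = 4.36e-11). CENPF, a protein of the outer kinetochore, had 46.4 and 40.7 RPKM in HEK-Jag1WT wells, 30.4 and 29.9 RPKM in HEK-Jag1Ndr wells, and 24.4 and 22.3 RPKM in HEK-control wells, in the same order and without overlap. CENPF rose by 0.87 in HEK-Jag1WT (adjusted p = 3.44e-22) and by 0.37 in HEK-Jag1Ndr (adjusted p = 3.78e-08), and HEK-Jag1Ndr against HEK-Jag1WT gave -0.50 ± 0.052, adjusted p = 5.69e-13.

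CENPE, a kinesin motor at the kinetochore, had 14.4 and 13 RPKM in HEK-Jag1WT wells, 7.72 and 7.77 RPKM in HEK-Jag1Ndr wells, and 7.32 and 7.51 RPKM in HEK-control wells. Here the HEK-Jag1WT wells stood alone: CENPE rose in HEK-Jag1WT (0.87 ± 0.08, adjusted p = 1.69e-14), HEK-Jag1Ndr was lower than HEK-Jag1WT (-0.79 ± 0.079, adjusted p = 1.65e-13), and HEK-Jag1Ndr against HEK-control gave 0.076 ± 0.084, adjusted p = 0.49. KIF11, the kinesin that pushes spindle poles apart, had 60.2 and 58.3 RPKM in HEK-Jag1WT wells, 44 and 41.5 RPKM in HEK-Jag1Ndr wells, and 35 and 37.4 RPKM in HEK-control wells. KIF11 rose in HEK-Jag1WT (0.70 ± 0.059, adjusted p = 5.03e-16) and less in HEK-Jag1Ndr (0.25 ± 0.059, adjusted p = 0.000318), with HEK-Jag1Ndr below HEK-Jag1WT (-0.45 ± 0.057, adjusted p = 7.42e-10). The rise in HEK-Jag1Ndr did not pass without the HEK-Jag1Ndr well beside C2C12-Notch1 (adjusted p = 0.0582) or the HEK-control well beside C2C12-Notch1 (adjusted p = 0.089), and its adjusted p spanned 1.99e-06 to 0.089 over the 14 alternatives. BUB1B, which encodes the checkpoint protein BUBR1, had 46.4 and 49.1 RPKM in HEK-Jag1WT wells, 34.4 and 32.9 RPKM in HEK-Jag1Ndr wells, and 27.7 and 29.5 RPKM in HEK-control wells. BUB1B rose in HEK-Jag1WT (0.73 ± 0.07, adjusted p = 7.65e-14) and in HEK-Jag1Ndr (0.24 ± 0.07, adjusted p = 0.0036), with HEK-Jag1Ndr below HEK-Jag1WT (-0.48 ± 0.067, adjusted p = 7.47e-09). Its rise in HEK-Jag1Ndr did not pass without the HEK-Jag1Ndr well beside C2C12-Notch1 (adjusted p = 0.245) or the HEK-control well beside C2C12-Notch1 (adjusted p = 0.105), and its adjusted p spanned 0.000771 to 0.245 over the 14 alternatives. In KIF11 and BUB1B alike the wells of the 3 lines did not overlap.

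TOP2A, the topoisomerase that untangles chromosomes, had 121 and 120 RPKM in HEK-Jag1WT wells, 101 and 103 RPKM in HEK-Jag1Ndr wells, and 80.9 and 86.2 RPKM in HEK-control wells, again without overlap. TOP2A rose in HEK-Jag1WT (0.51 ± 0.047, adjusted p = 2.75e-14) and in HEK-Jag1Ndr (0.29 ± 0.047, adjusted p = 5.15e-07), and HEK-Jag1Ndr was below HEK-Jag1WT (-0.22 ± 0.046, adjusted p = 6.12e-05). CDK1, the kinase that drives entry into mitosis, had 197 and 179 RPKM in HEK-Jag1WT wells, 145 and 133 RPKM in HEK-Jag1Ndr wells, and 122 and 132 RPKM in HEK-control wells. CDK1 rose in HEK-Jag1WT (0.55 ± 0.057, adjusted p = 7.85e-13), and HEK-Jag1Ndr was below HEK-Jag1WT (-0.39 ± 0.056, adjusted p = 1.44e-08). The lowest HEK-Jag1Ndr well (133 RPKM) was just above the highest HEK-control well (132 RPKM), and the rise there (0.16 ± 0.057, adjusted p = 0.0141) did not pass without the HEK-Jag1Ndr well beside C2C12-Notch1 (adjusted p = 0.302) or the HEK-control well beside C2C12-Notch1 (adjusted p = 0.753), and its adjusted p spanned 4.18e-05 to 0.753 over the 14 alternatives.

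A smaller set of mitotic genes was at least as high in HEK-Jag1Ndr as in HEK-Jag1WT. AURKA, the kinase of the spindle poles, had 36 and 35.7 RPKM in HEK-Jag1WT wells, 48.3 and 50.1 RPKM in HEK-Jag1Ndr wells, and 26.3 and 29.6 RPKM in HEK-control wells. Again no 2 lines overlapped, and HEK-Jag1Ndr was highest. AURKA rose in HEK-Jag1WT (0.35 ± 0.087, adjusted p = 0.000509) and in HEK-Jag1Ndr (0.83 ± 0.081, adjusted p = 1.99e-13), and was higher in HEK-Jag1Ndr than in HEK-Jag1WT (0.47 ± 0.08, adjusted p = 7.25e-07). CCNB1, the main cyclin partner of CDK1, had 74.2 and 78 RPKM in HEK-Jag1WT wells, 99.1 and 90.7 RPKM in HEK-Jag1Ndr wells, and 63.3 and 60.6 RPKM in HEK-control wells, also with HEK-Jag1Ndr highest and no overlap. CCNB1 rose in HEK-Jag1WT (0.27 ± 0.067, adjusted p = 0.000447) and in HEK-Jag1Ndr (0.61 ± 0.063, adjusted p = 1.41e-12), and was higher in HEK-Jag1Ndr than in HEK-Jag1WT (0.34 ± 0.063, adjusted p = 4.51e-06). Its rise in HEK-Jag1WT did not pass without the HEK-Jag1WT well beside C2C12-control (adjusted p = 0.0622), and its adjusted p spanned 7.41e-05 to 0.0622 over the 14 alternatives.

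BUB1, a spindle checkpoint kinase, had 34.9 and 39.3 RPKM in HEK-Jag1WT wells, 38.2 and 38.9 RPKM in HEK-Jag1Ndr wells, and 23.3 and 24.8 RPKM in HEK-control wells. PLK1, a kinase of centrosomes and kinetochores, had 44.7 and 50.3 RPKM in HEK-Jag1WT wells, 45.1 and 53 RPKM in HEK-Jag1Ndr wells, and 32.2 and 33.3 RPKM in HEK-control wells. For both genes the wells of the Jag1 lines overlapped each other and lay above HEK-control. BUB1 rose in HEK-Jag1WT (0.60 ± 0.074, adjusted p = 2.58e-10) and in HEK-Jag1Ndr (0.68 ± 0.071, adjusted p = 2.11e-12), and HEK-Jag1Ndr against HEK-Jag1WT gave 0.079 ± 0.069, adjusted p = 0.334. PLK1 rose in HEK-Jag1WT (0.50 ± 0.08, adjusted p = 3.27e-07) and in HEK-Jag1Ndr (0.57 ± 0.077, adjusted p = 6.96e-09), and HEK-Jag1Ndr against HEK-Jag1WT gave 0.069 ± 0.075, adjusted p = 0.441. These last differences missed the threshold, which does not show that the lines were alike.

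The other 5 mitotic genes were CDC20, BIRC5, AURKB, CCNB2 and CCNA2, and CDC20 and CCNB2 passed in all 3 comparisons. CDC20, which activates the anaphase-promoting complex, rose in HEK-Jag1WT (0.71 ± 0.081, adjusted p = 2.57e-11) and in HEK-Jag1Ndr (0.41 ± 0.081, adjusted p = 1.84e-05), and was lower in HEK-Jag1Ndr than in HEK-Jag1WT (-0.30 ± 0.077, adjusted p = 0.000742). That last difference did not pass without the HEK-Jag1WT well beside C2C12-Notch1 (adjusted p = 0.108) or the HEK-Jag1Ndr well beside C2C12-Notch1 (adjusted p = 0.104), and its adjusted p spanned 1.09e-05 to 0.108 over the 14 alternatives. BIRC5, survivin of the chromosomal passenger complex, rose in HEK-Jag1WT (0.38 ± 0.055, adjusted p = 2.22e-08) and in HEK-Jag1Ndr (0.29 ± 0.054, adjusted p = 7.14e-06), and HEK-Jag1Ndr against HEK-Jag1WT gave -0.089 ± 0.054, adjusted p = 0.152. AURKB, the kinase of the same complex, gave 0.12 ± 0.065, adjusted p = 0.106 in HEK-Jag1WT and -0.12 ± 0.065, adjusted p = 0.114 in HEK-Jag1Ndr against HEK-control, and was lower in HEK-Jag1Ndr than in HEK-Jag1WT (-0.25 ± 0.065, adjusted p = 0.000942). The AURKB call did not pass without the HEK-Jag1WT well beside C2C12-control (adjusted p = 0.0518), and its adjusted p spanned 2.22e-05 to 0.0518 over the 14 alternatives.

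CCNB2, another B-type cyclin, rose in HEK-Jag1WT (0.49 ± 0.093, adjusted p = 9.58e-06) and in HEK-Jag1Ndr (0.28 ± 0.092, adjusted p = 0.0102), and was lower in HEK-Jag1Ndr than in HEK-Jag1WT (-0.21 ± 0.089, adjusted p = 0.0385). The CCNB2 rise in HEK-Jag1Ndr did not pass without the HEK-Jag1Ndr well beside C2C12-control (adjusted p = 0.11) or the HEK-control well beside C2C12-Notch1 (adjusted p = 0.134), and its adjusted p spanned 0.00568 to 0.172 over the 14 alternatives. The difference between the Jag1 lines did not pass without the HEK-Jag1Ndr well beside C2C12-control (adjusted p = 0.0622), the HEK-Jag1WT well beside C2C12-Notch1 (adjusted p = 0.343) or the HEK-Jag1Ndr well beside C2C12-Notch1 (adjusted p = 0.221), and its adjusted p spanned 0.0108 to 0.343 over the 14 alternatives. CCNA2, the cyclin of S phase and G2, rose in HEK-Jag1WT (0.29 ± 0.066, adjusted p = 0.000178), gave 0.12 ± 0.065, adjusted p = 0.14 in HEK-Jag1Ndr against HEK-control, and was lower in HEK-Jag1Ndr than in HEK-Jag1WT (-0.17 ± 0.065, adjusted p = 0.0196). That last CCNA2 difference did not pass without the HEK-Jag1WT well beside C2C12-control (adjusted p = 0.201), the HEK-Jag1Ndr well beside C2C12-control (adjusted p = 0.144) or the HEK-Jag1WT well beside C2C12-Notch1 (adjusted p = 0.0547), and its adjusted p spanned 0.00261 to 0.201 over the 14 alternatives.

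**Figure D3:**
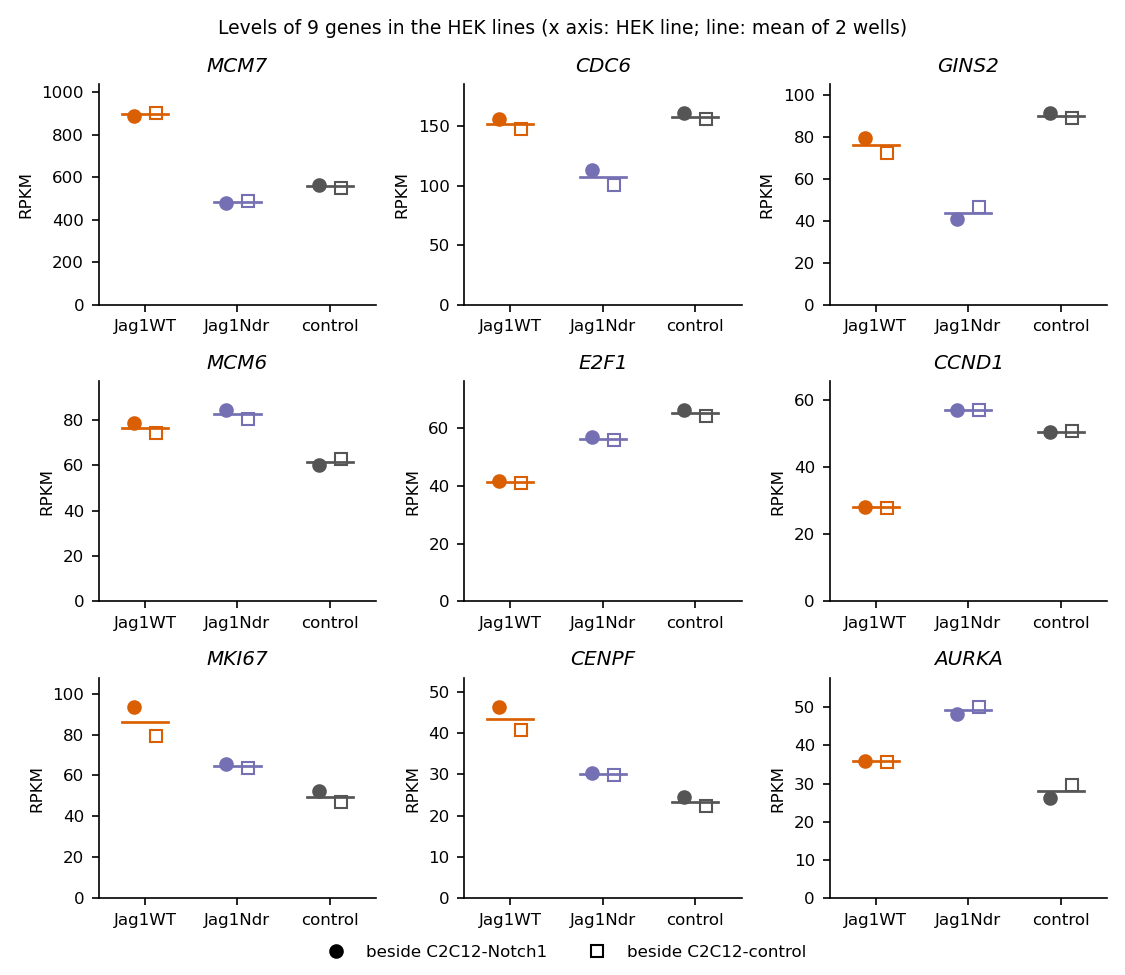
Human RPKM of 9 genes (y axes, starting at 0) in the HEK lines (x axes), with 1 point per well, filled beside C2C12-Notch1 and open beside C2C12-control, and a line at the mean of the 2 wells. CCND1 is lowest in HEK-Jag1WT (28.1 and 27.8 RPKM), GINS2 in HEK-Jag1Ndr (41 and 46.7 RPKM), and AURKA is highest in HEK-Jag1Ndr (48.3 and 50.1 RPKM).

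Well by well, the mitotic genes stood above the S-phase genes in all 4 wells of the Jag1 lines, relative to the mean of the HEK-control wells. The median of the 16 mitotic genes minus that of the 23 S-phase genes was 0.54 and 0.46 log2 units in the HEK-Jag1WT wells, 0.50 and 0.52 in the HEK-Jag1Ndr wells, and -0.05 and 0.05 in the HEK-control wells. Among the 41 genes this gap was made up differently in the Jag1 lines: the mitotic medians were 0.54 and 0.53 in HEK-Jag1WT against 0.30 and 0.29 in HEK-Jag1Ndr, and the S-phase medians were 0.0068 and 0.071 in HEK-Jag1WT against -0.20 and -0.23 in HEK-Jag1Ndr. Over the other mitotic and other S-phase genes, which are not among the 41, the medians against HEK-control were 0.39 and 0.24 in HEK-Jag1WT and 0.27 and -0.052 in HEK-Jag1Ndr, so that the gap there was smaller in HEK-Jag1WT. Summed CPM, counts scaled to library size, gave the same order of the lines against HEK-control. The mitotic sum over the S-phase sum was 0.545 and 0.525 in HEK-Jag1WT, 0.559 and 0.566 in HEK-Jag1Ndr, and 0.385 and 0.394 in HEK-control. The S-phase sum was 8283 and 7969 CPM in HEK-Jag1WT wells and 7547 and 7266 CPM in HEK-control wells. In HEK-Jag1Ndr wells it was lowest, at 6578 and 6273 CPM. Abundant genes weigh most in these sums, and MCM7 had the highest mean level, 645 RPKM. MCM7 had 889 and 902 RPKM in HEK-Jag1WT wells against 563 and 552 RPKM in HEK-control wells. The S-phase sum was not taken without MCM7. The place of HEK-Jag1WT above HEK-control in it is thus not read as a trait of the S-phase genes as a set.

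**Figure D4:**
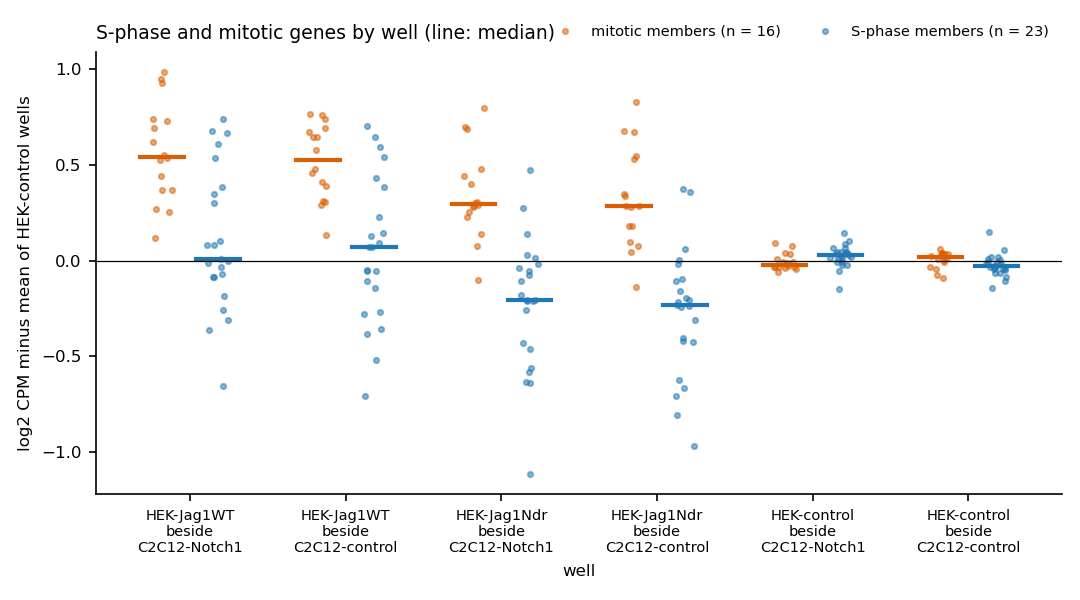
Log2 CPM minus the mean of the HEK-control wells (y axis) for each of the 16 mitotic genes (orange) and 23 S-phase genes (blue) in each well (x axis), with lines at the medians. The S-phase points spread on both sides of 0 in the HEK-Jag1WT wells (medians 0.0068 and 0.071) and lie mostly below 0 in the HEK-Jag1Ndr wells (medians -0.20 and -0.23).

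Over all 41 genes, called or not, the direction was the same beside both mouse lines for 37 in HEK-Jag1WT against HEK-control. It was the same for 36 in HEK-Jag1Ndr against HEK-control and for 41 in HEK-Jag1Ndr against HEK-Jag1WT. The same count was not made over all tested genes, so that these counts are not read as a trait of the 41. The called genes (29, 31 and 35) all kept their sign. The calls were made from these same wells, so that their agreement is no separate support. The mitotic median of HEK-Jag1WT against HEK-control was 0.56 beside C2C12-Notch1 and 0.50 beside C2C12-control, and that of HEK-Jag1Ndr was 0.32 and 0.26. The S-phase median of HEK-Jag1Ndr against HEK-control was -0.21 beside C2C12-Notch1 and -0.18 beside C2C12-control. Each of these pairs is 1 well against 1 well and has no replicate check.

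Genes of the same pathways outside the 41 were read from lists of genes by function. The lists were drawn up with earlier results of these data known, so that they are no separate support. Of 69 other mitotic genes, 46 rose and 6 fell in HEK-Jag1WT against HEK-control (median 0.39), 41 rose and 12 fell in HEK-Jag1Ndr (median 0.27), and HEK-Jag1Ndr had 14 higher and 36 lower than HEK-Jag1WT (median -0.23). The shares higher and lower were 66.7% and 8.7% in HEK-Jag1WT (24.9% and 29.4% of all tested genes). In HEK-Jag1Ndr they were 59.4% and 17.4% (22.6% and 23.5%), and between the Jag1 lines 20.3% and 52.2% (29.2% and 28.5%). PRC1, which bundles microtubules of the central spindle, had 167 and 183 RPKM in HEK-Jag1WT wells, 109 and 110 RPKM in HEK-Jag1Ndr wells, and 65.7 and 70 RPKM in HEK-control wells, and the 3 lines did not overlap. PRC1 rose in HEK-Jag1WT (1.36 ± 0.054, adjusted p = 1.37e-31) and in HEK-Jag1Ndr (0.70 ± 0.055, adjusted p = 3.15e-17). KIF20B, a kinesin of cytokinesis, rose in HEK-Jag1WT (1.12 ± 0.073, adjusted p = 1.06e-20), as did NCAPD2, a condensin subunit (0.83 ± 0.057, adjusted p = 6.45e-20), and CKAP2, a spindle protein (0.74 ± 0.05, adjusted p = 7.1e-20). In HEK-Jag1Ndr, DLGAP5, which stabilises spindle fibres, rose (0.95 ± 0.065, adjusted p = 7.2e-20), as did SMC4, the condensin ATPase (0.63 ± 0.05, adjusted p = 1.22e-16), and HMMR, a spindle assembly factor (1.22 ± 0.11, adjusted p = 1.6e-14). HEK-Jag1WT wells were also above HEK-control wells in DLGAP5 (60.5 and 58.4 against 34.7 and 36.5 RPKM) and SMC4 (94.1 and 88.9 against 65.5 and 72.8 RPKM). HMMR had 19.2 and 21.7 RPKM in HEK-Jag1WT wells, 15.8 and 17.2 RPKM in HEK-Jag1Ndr wells, and 6.59 and 7.44 RPKM in HEK-control wells. MYBL2, a transcription factor of late cell cycle genes, was higher in HEK-Jag1Ndr than in HEK-Jag1WT (0.62 ± 0.044, adjusted p = 3.51e-19), and SKA3, of the kinetochore, was lower (-0.99 ± 0.089, adjusted p = 4.93e-15).

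Of 55 other S-phase genes, 30 rose and 7 fell in HEK-Jag1WT against HEK-control (median 0.24), 13 rose and 18 fell in HEK-Jag1Ndr (median -0.052), and HEK-Jag1Ndr had 10 higher and 33 lower than HEK-Jag1WT (median -0.31). The shares higher and lower were 54.5% and 12.7% in HEK-Jag1WT (24.9% and 29.4% of all tested genes). In HEK-Jag1Ndr they were 23.6% and 32.7%, near the 22.6% and 23.5% of all tested genes for those higher. Between the Jag1 lines they were 18.2% and 60% (29.2% and 28.5%). RFC2, a subunit of the clamp loader, had 161 and 163 RPKM in HEK-Jag1WT wells, 87.9 and 87.7 RPKM in HEK-Jag1Ndr wells, and 67.7 and 66.2 RPKM in HEK-control wells. The 3 lines did not overlap, and RFC2 rose in HEK-Jag1WT (1.25 ± 0.065, adjusted p = 1.26e-25). DBF4, the activator of the CDC7 kinase, rose in HEK-Jag1WT (1.20 ± 0.12, adjusted p = 4.32e-13), as did POLA2, the partner subunit of POLA1 (0.82 ± 0.085, adjusted p = 8.76e-13). GMNN, geminin, which holds CDT1 inactive after origins have fired, had 165 and 148 RPKM in HEK-Jag1WT wells, 88.7 and 72.1 RPKM in HEK-Jag1Ndr wells, and 173 and 154 RPKM in HEK-control wells. Both HEK-Jag1Ndr wells were below the other 4, with a fall against HEK-control (-1.07 ± 0.065, adjusted p = 4.58e-22) and against HEK-Jag1WT (-0.99 ± 0.067, adjusted p = 2.51e-20). CLSPN, a fork checkpoint mediator, fell in HEK-Jag1Ndr (-0.47 ± 0.055, adjusted p = 7.27e-11), as did PRIM2, a primase subunit (-0.79 ± 0.097, adjusted p = 3.81e-10), while POLD2, a subunit of polymerase delta, rose (0.47 ± 0.054, adjusted p = 3.13e-11). POLD2 was also above HEK-control (149 and 150 RPKM) in the HEK-Jag1WT wells (182 and 208 RPKM). DTL, which targets CDT1 for destruction, was lower in HEK-Jag1Ndr than in HEK-Jag1WT (-0.73 ± 0.06, adjusted p = 1.36e-16).

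Among 30 CDK inhibitors, RB and E2F family members and related regulators, 11 rose and 11 fell in HEK-Jag1WT, 10 rose and 8 fell in HEK-Jag1Ndr, and 13 were higher and 9 lower in HEK-Jag1Ndr than in HEK-Jag1WT. The shares were 36.7% higher and 36.7% lower in HEK-Jag1WT (24.9% and 29.4% of all tested genes) and 33.3% and 26.7% in HEK-Jag1Ndr (22.6% and 23.5%). RB1, the retinoblastoma protein, had 43.3 and 41.4 RPKM in HEK-Jag1WT wells, 41.9 and 41.6 RPKM in HEK-Jag1Ndr wells, and 24.2 and 25.2 RPKM in HEK-control wells. All 4 wells of the Jag1 lines were above HEK-control, and RB1 rose in HEK-Jag1WT (0.76 ± 0.065, adjusted p = 9.49e-16) and in HEK-Jag1Ndr (0.76 ± 0.064, adjusted p = 4.34e-16). CDK6, a partner of the D-type cyclins, rose in HEK-Jag1WT (0.94 ± 0.06, adjusted p = 2.98e-21), as did the E2F repressors E2F7 (0.66 ± 0.06, adjusted p = 6.43e-15) and E2F8 (1.09 ± 0.10, adjusted p = 2.98e-14). E2F3 fell in HEK-Jag1Ndr (-0.72 ± 0.072, adjusted p = 5.08e-13), as did the CDK inhibitor CDKN1B (-0.71 ± 0.094, adjusted p = 3.4e-09), while FBXO5, an inhibitor of the anaphase-promoting complex, rose (0.62 ± 0.064, adjusted p = 1.51e-12). FBXO5 had 94.5 and 83.9 RPKM in HEK-Jag1WT wells, 90.4 and 83.2 RPKM in HEK-Jag1Ndr wells, and 59.8 and 53.3 RPKM in HEK-control wells. CCND2, the D-type cyclin outside the 41, was higher in HEK-Jag1Ndr than in HEK-Jag1WT (0.71 ± 0.066, adjusted p = 1.18e-14).

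Of the 5 measured growth drivers of G1, 4 fell and 0 rose in HEK-Jag1WT, and 4 fell and 1 rose in HEK-Jag1Ndr, where 29.4% and 23.5% of all tested genes fell. At least 3 of these calls were lost in some alternatives. In HEK-Jag1Ndr that of NPM1, nucleophosmin (-0.15 ± 0.057, adjusted p = 0.0314), failed in 10 of the 14 alternatives. That of MYCN, a relative of MYC (-1.56 ± 0.454, adjusted p = 0.00343), failed in 2. In HEK-Jag1WT that of ODC1, an enzyme of polyamine synthesis (-0.22 ± 0.052, adjusted p = 0.000224), failed in 1. The fall of ODC1 in HEK-Jag1Ndr was not followed over the alternatives. MYCN was low throughout, at 0.146 and 0.152 RPKM in HEK-Jag1WT wells and 0.352 and 0.385 RPKM in HEK-Jag1Ndr wells. Its HEK-control wells had 0.762 and 1.49 RPKM. MYC, a transcription factor that drives cells into the cycle, had 26.1 and 22.8 RPKM in HEK-Jag1WT wells, 55.3 and 47 RPKM in HEK-Jag1Ndr wells, and 95.8 and 97.2 RPKM in HEK-control wells. The 3 lines did not overlap, in the order HEK-control, HEK-Jag1Ndr, HEK-Jag1WT, and MYC fell in HEK-Jag1WT (-1.99 ± 0.077, adjusted p = 3.27e-32) and in HEK-Jag1Ndr (-0.91 ± 0.066, adjusted p = 1.18e-18) and was higher in HEK-Jag1Ndr than in HEK-Jag1WT (1.08 ± 0.082, adjusted p = 3.13e-18). NCL, nucleolin, fell in HEK-Jag1WT (-0.24 ± 0.042, adjusted p = 1.83e-06) and rose in HEK-Jag1Ndr (0.21 ± 0.042, adjusted p = 1.89e-05).

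Fewer of these genes differed in the HEK cells with the mouse partner than between the HEK lines. Beside C2C12-Notch1, 5 of the 41 genes (12.2%) were higher than beside C2C12-control and 0 were lower, where 3.07% of all tested genes were higher and 1.77% lower (4.84% in all). The 5 were MKI67, RRM2, CCNE1, CCNE2 and CENPF. MKI67 had 93.6, 65.6 and 52.4 RPKM beside C2C12-Notch1 and 79.1, 63.5 and 46.9 RPKM beside C2C12-control, in the order HEK-Jag1WT, HEK-Jag1Ndr, HEK-control. Its partner difference was 0.19 ± 0.038, adjusted p = 0.000602. RRM2 had 201, 281 and 263 RPKM beside C2C12-Notch1 and 186, 244 and 253 RPKM beside C2C12-control, a difference of 0.16 ± 0.038, adjusted p = 0.00529. In both genes each well beside C2C12-Notch1 was above the well of the same HEK line beside C2C12-control, while the ranges over all wells overlapped.

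CCNE1 differed by 0.25 ± 0.07, adjusted p = 0.0223, CCNE2 by 0.23 ± 0.066, adjusted p = 0.0231 and CENPF by 0.15 ± 0.043, adjusted p = 0.0312. The largest of the 5 differences was thus 0.25 log2 units, in CCNE1, and the medians over the 23 S-phase and 16 mitotic genes were 0.042 and 0.018, against 0.0015 over all tested genes. None of the 5 calls passed in all 13 alternatives: adjusted p spanned 5.07e-05 to 1 for MKI67, 4.42e-05 to 1 for RRM2, 0.0162 to 1 for CCNE1, 0.0109 to 1 for CCNE2 and 0.0132 to 1 for CENPF. The count of higher genes among the 41 was 0 without either HEK-Jag1WT well, 1 without either HEK-Jag1Ndr well and 11 without either HEK-control well. The human share of reads differed between the partners in every HEK line (70.4%, 63.5% and 66.4% beside C2C12-Notch1 against 52.8%, 47.3% and 50.6% beside C2C12-control), and its part in these calls was not tested.

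In the mouse cells of the same wells, few of the mouse counterparts passed between HEK lines. All 41 mouse genes of the same symbol were tested. Against HEK-control, 0 rose and 2 fell beside HEK-Jag1WT, where 2.7% of tested mouse genes were higher and 1.76% lower (4.46% in all), and by edgeR 0 passed beside HEK-Jag1Ndr (4 at an unadjusted p under 0.05), where 0.431% were higher and 0.0968% lower (0.528% in all). Beside HEK-Jag1Ndr 1 was higher than beside HEK-Jag1WT (Ccnd1) and 0 were lower, where 0.686% of tested mouse genes were higher and 1.35% lower (2.03% in all). The medians of the 41 were 0.013 and 0.023, against human medians of 0.29 and -0.011 in the HEK cells. The 2 that fell were E2f2 (-0.54 ± 0.12, adjusted p = 0.00173) and Ccnd1 (-0.42 ± 0.059, adjusted p = 4.15e-07). Mouse Ccnd1 had 99.9 and 119 RPKM beside HEK-Jag1WT, 121 and 141 RPKM beside HEK-Jag1Ndr, and 141 and 158 RPKM beside HEK-control. HEK-Jag1WT was also the line with the lowest human CCND1, and whether reads of one species counted in the other table play a part in this was not tested. Between C2C12-Notch1 and C2C12-control, by contrast, 12 of the 41 mouse genes were higher and 20 lower, where 28.4% of tested mouse genes were higher and 29.4% lower (57.8% in all).

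**Figure D5:**
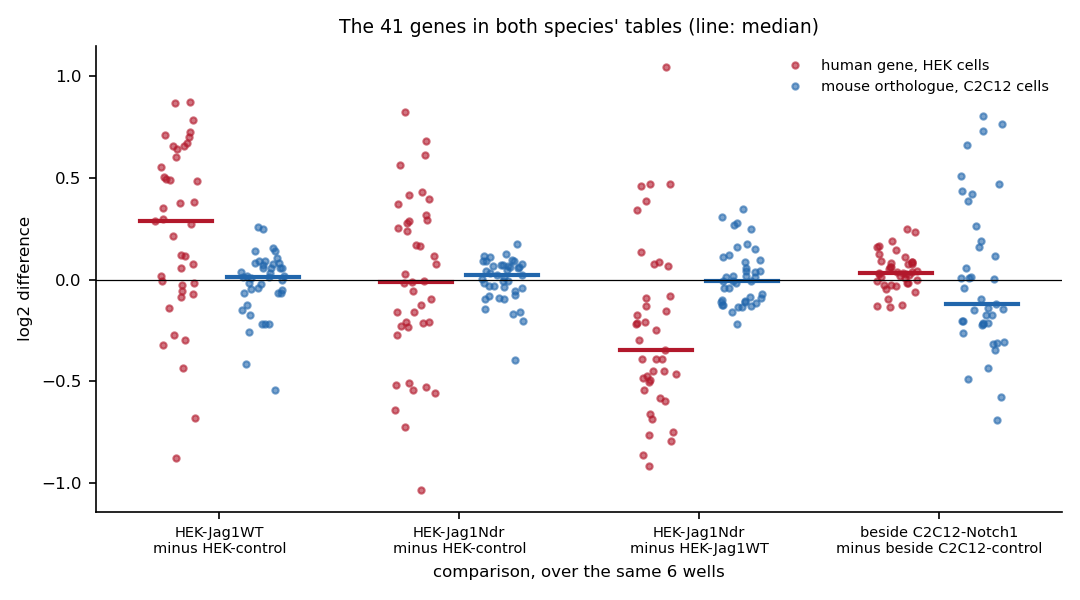
Log2 differences (y axis) of the 41 human genes in HEK cells (red) and of their mouse counterparts in C2C12 cells (blue) in the 4 comparisons over the same 6 wells (x axis), with lines at the medians. For HEK-Jag1WT minus HEK-control the human median is 0.29 and the mouse median 0.013.

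The spans of some of these genes, introns included, overlap that of a neighbour, and the library kit used does not mark strand. Overlap of spans need not mean shared exon sequence. Per RefSeq, 17 of the 41 have an overlapping gene on either strand. The neighbour had more reads than the member in the 6 wells together for ORC1 (PRPF38A, 174% of its reads) and GINS2 (GSE1, 163%), and it had 59.7% for TYMS (ENOSF1), 53% for CCNA2 (EXOSC9) and 23.7% for CCNE2 (INTS8). For these 5 genes, reads in the overlap cannot be told apart from the neighbour's. GSE1 rose in HEK-Jag1WT (0.65 ± 0.067, adjusted p = 9.03e-13) and gave -0.07 ± 0.069 (adjusted p = 0.43) in HEK-Jag1Ndr, where GINS2 fell. ENOSF1 rose in HEK-Jag1WT (0.97 ± 0.098, adjusted p = 3.96e-13), as TYMS did. For MCM7, AP4M1 had 0.659% of its reads.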

How the data were processed

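RNA of 6 co-culture wells was sequenced from polyA RNA with the TruSeq RNA v2 kit, per the labels' protocols, and STAR with the builds mm9 and hg19 is named in the submitters' processing notes; which tool counted reads, and how reads were split by species, is not given in the sources used here. For each species the authors deposited 1 table with whole-number read counts per gene and RPKM values, which scale each gene to its length and to the reads of that species. Of 24303 human entries, 448 exact repeats were dropped. Among the 23855 kept, 240 repeated the name of another entry and stayed as separate entries. In 188 entries the deposited name was already joined with a plus sign.

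Counts were tested with edgeR 4.0.16 (R 4.3.3), TMM factors, the filterByExpr filter and its quasi-likelihood test in robust form, with C2C12 line and HEK line as terms. Samples of all 6 wells entered, which leaves 2 residual degrees of freedom, and p was adjusted by Benjamini-Hochberg at 0.05 over 13596 genes. The SE is the log2 difference over the root of the F statistic. The common biological coefficient of variation was 3.48%, and 1 well per combination allows no interaction test. Alternatives used library sizes, RLE factors, DESeq2 1.42.0, limma 3.58.1 on log2(RPKM + 1) or log2(RPKM + 0.1), no filter, 1 term, fewer wells, and each well left out. The mouse table was fitted in the same way, a choice made after seeing the data. The members and gene lists were chosen with earlier results of these data known. All 41 members are named, with full values for at most 6 per role and comparison in order of p, and up to 4 genes per other list. Overlapping genes were read from the start and end positions of whole genes in RefSeq of GRCh38.p14, while the counts use hg19.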

Additional observations from a re-analysis of the deposited data

Results flagged for a closer look

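CDT1 was the 1 gene of the 41 whose differences took opposite signs within the 2 mouse partners, with counting intervals on opposite sides of 0. HEK-Jag1WT minus HEK-control gave a log2 ratio of -0.1541 between the wells beside C2C12-Notch1 (95% interval -0.25 to -0.058) and 0.1577 between the wells beside C2C12-control (0.038 to 0.28). Seen the other way, C2C12-Notch1 minus C2C12-control gave -0.1383 within HEK-Jag1WT, -0.1397 within HEK-Jag1Ndr and 0.1735 within HEK-control. Each value sets 1 well against 1 well, the intervals cover counting error only, and the difference was not tested. The fall of CDT1 in HEK-Jag1Ndr against HEK-control had the same sign beside C2C12-Notch1 (-0.65) and beside C2C12-control (-0.33).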

How the results depend on the processing

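Of the 100 differences called among the 41 genes over the 4 comparisons, 72 passed in every alternative, 28 were lost in at least 1, and 0 reversed. By comparison, 24 of 29 calls were kept throughout for HEK-Jag1WT minus HEK-control, 20 of 31 for HEK-Jag1Ndr minus HEK-control, 28 of 35 for HEK-Jag1Ndr minus HEK-Jag1WT, and 0 of 5 for C2C12-Notch1 minus C2C12-control. Of the 64 values not called, 29 changed sign in some alternative, none of them larger than 0.0788 in the reported fit.

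DESeq2 called fewer genes of all those tested (4071, 2866, 4697 and 73, against 7379, 6266, 7843 and 658 in the 4 comparisons), and 9 in place of 15 members lower in HEK-Jag1Ndr minus HEK-control. For C2C12-Notch1 minus C2C12-control, limma called 25 genes with a pseudocount of 1 and 27 with 0.1, and the fit with the C2C12 line alone called 0, with 50 at an unadjusted p under 0.05 and 73 by DESeq2. The members higher there numbered 2 by library size, 1 by DESeq2, 0 by either limma fit and 0 with the C2C12 line alone. The share of its calls that were higher was 63.4% with TMM, 41.8% by library size, 87.7% by DESeq2 and 80% by limma.

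The S-phase median of HEK-Jag1WT minus HEK-control was -0.0075 and lay on the other side of 0 by library size (0.015), RLE factors (0.014), DESeq2 (0.013), limma (0.0252 and 0.0254) and with only the wells of those 2 lines (0.017), so that its sign is not set. That of C2C12-Notch1 minus C2C12-control was 0.042, against 0.011 by library size and 0.0097 and 0.0099 by limma. The cause of these shifts was not tested.

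Leaving out 1 well gave 5047 to 7381, 4371 to 5965, 6048 to 8313 and 176 to 1428 genes called in the 4 comparisons, and 0 to 11 members higher beside C2C12-Notch1. The S-phase medians ran from -0.0046 to 0.057 (HEK-Jag1WT minus HEK-control), -0.21 to -0.19 (HEK-Jag1Ndr minus HEK-control), -0.49 to -0.40 (HEK-Jag1Ndr minus HEK-Jag1WT) and 0.046 to 0.064 (partner). The mitotic medians ran from 0.52 to 0.60, 0.25 to 0.34, -0.29 to -0.22 and -0.00051 to 0.03. The reported model pairs wells that share a mouse partner or a HEK line, since both lines are terms of it. Without that pairing, with 1 term only, 6148, 4802, 6677 and 0 genes were called in the 4 comparisons. The mouse counterparts were fitted in 1 way. Depth limits the smallest genes most: CCNB2 had 203 reads in the shallowest well.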
